A study of Mus musculus with 16 samples.

Results

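The heat shock genes followed here are Hspa1a, Hspa1b, Dnajb1, Hsph1, Hspb1, Hspa8 and Hsp90aa1, a list of 7 genes chosen by name as marks of the stress of dissociating and sorting a tissue. Of these, 6 had a named probe set, 1 each, among the 19505 genes of the array, and Hspa8 was not analysed here. Signals of 5 of the 6 lay above the background, set here at each array's median negative-control signal, on all 16 arrays, and Hspb1 lay below it on all 16.

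The arrays measured sorted cells of the olfactory mucosa, the tissue of the nose that holds the odor-sensing neurons, from S100a5-tauGFP mice. These mice carry a green fluorescent protein reporter named for S100a5, which olfactory sensory neurons express when they are active, so GFP+ cells are enriched for such neurons and GFP- cells are the rest of the suspension, of any cell type. Mice of both sexes, 7 to 12 weeks old, spent 40 h in clean air chambers, and from 26 h on received octanoic acid, a fatty acid odorant, or filtered air as the vehicle in pulses of 10 s, 1 every 20 min. The tissue of 3 mice made 1 pool, and each pool gave a GFP+ and a GFP- sample, so that the 24 mice became 8 pools and 16 arrays in 4 groups of 4: GFP+ and GFP- cells with clean air, and GFP+ and GFP- cells with octanoic acid. All 4 groups carry the reporter and went through the same dissociation and sort. No unsorted or undissociated sample was analysed here, so the stress of the preparation itself has no control among these arrays.

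Heat shock genes encode chaperones, proteins that bind unfolded chains and help them fold or be degraded. When unfolded proteins build up, heat shock factor 1 binds clusters of the unit GAA and its reverse complement TTC, called heat shock elements, in the promoters of these genes and raises their transcription within minutes. Tissue dissociation can set off the same response, which is why these transcripts are read as a mark of handling in sorted cells.

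The promoters of the members show how close some of them are to each other. The RefSeq promoter table, built on GRCm38.p6, held 5 of the 7 genes (not Hsp90aa1 or Hspa8), and the 250 bases before the transcription start are printed for the 4 of them whose signal lay above the background. Capitals mark a pair of facing units, GAANNTTC or TTCNNGAA, each of which reads the same on both strands. Hspa1a lies on the minus strand at chr17:34972157-34972406, Hspa1b on the minus strand at chr17:34959239-34959488, Hsph1 on the minus strand at chr5:149636337-149636586, and Dnajb1 on the plus strand at chr8:83607925-83608174.
Hspa1a: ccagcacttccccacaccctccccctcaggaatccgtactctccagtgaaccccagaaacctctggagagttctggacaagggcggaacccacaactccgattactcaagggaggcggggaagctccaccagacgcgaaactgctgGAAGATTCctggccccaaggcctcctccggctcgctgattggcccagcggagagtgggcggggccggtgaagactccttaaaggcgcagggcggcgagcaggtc
Hspa1b: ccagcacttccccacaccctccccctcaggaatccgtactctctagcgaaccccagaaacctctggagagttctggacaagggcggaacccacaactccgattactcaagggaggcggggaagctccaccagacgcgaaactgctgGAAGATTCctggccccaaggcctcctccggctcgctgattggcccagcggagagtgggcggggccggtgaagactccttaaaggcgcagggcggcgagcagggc
Hsph1: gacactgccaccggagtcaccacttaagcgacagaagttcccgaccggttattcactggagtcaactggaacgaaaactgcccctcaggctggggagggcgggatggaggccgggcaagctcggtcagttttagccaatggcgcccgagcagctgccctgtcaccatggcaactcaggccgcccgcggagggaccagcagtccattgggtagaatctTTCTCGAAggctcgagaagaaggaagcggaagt
Dnajb1: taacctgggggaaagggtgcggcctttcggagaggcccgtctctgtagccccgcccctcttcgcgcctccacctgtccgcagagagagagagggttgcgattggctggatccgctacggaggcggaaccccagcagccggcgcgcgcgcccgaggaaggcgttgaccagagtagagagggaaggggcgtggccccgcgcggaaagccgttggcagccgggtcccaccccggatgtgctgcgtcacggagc

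The Hspa1a and Hspa1b promoters were identical at 247 of 250 aligned bases (98.8%) and carried the pair GAAGATTC at the same place, from -104 to -97 relative to the start. Hsph1 carried TTCTCGAA from -33 to -26 (from -54 to -47 of another annotated start), and Hspb1, not printed, carried GAAGTTTC from -117 to -110 and GAACCTTC from -97 to -90. Dnajb1 held no such letters in this window. The pair is not rare: 4218 of 32841 promoter windows in the table (12.8%), each cut to the 250 bases before a start, held at least 1. A run of 3 alternating units, GAANNTTCNNGAA or TTCNNGAANNTTC, was found in 153 windows (0.466%) and in none of the members' windows. Hspa1a and Hspa1b are near-identical copies of 1 gene, and the probe sequences were not analysed here, so signal may be shared between their probe sets and the 2 genes cannot be treated as separate evidence.

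The precision of these array values is limited by having 4 pools per treatment. The negative-control median was 6.20 log2 over all arrays and from 5.80 to 6.77 on single arrays, and the 95th percentile of the same controls was 10.4 log2. The highest control medians were on the octanoic acid GFP+ array of pool 3 (6.71) and the clean-air GFP- array of pool 4 (6.77), and the tests between the fractions and between treatments were also run without those pools. S100a5 itself, whose reporter set the gate, was 1.42 log2 higher in GFP+ than in GFP- cells over the 8 pools and checks the labels of the sort. Mature olfactory neuron markers were bright in all 4 groups and 12 of 12 lay above the background in each, so the labelled tissue was present in GFP+ and GFP- samples alike.

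Hspa1a, the stress-inducible cytosolic HSP70, was faint. In GFP+ cells it measured 8.35, 7.96, 8.30 and 8.19 log2 in clean-air pools 1 to 4 and 8.17, 8.37, 7.69 and 8.24 log2 in octanoic acid pools 1 to 4. In GFP- cells it measured 8.97, 8.22, 8.51 and 7.93 log2 with clean air and 9.31, 9.02, 8.50 and 8.39 log2 with octanoic acid. With octanoic acid every GFP+ array lay under every GFP- array, by a margin of only 8.37 against 8.39 at the nearest, whereas with clean air the fractions overlapped. In order of mean signal the groups ran from GFP- with octanoic acid (8.80 ± 0.43, SD, n = 4) through GFP- with clean air (8.41 ± 0.45) and GFP+ with clean air (8.20 ± 0.17) to GFP+ with octanoic acid (8.12 ± 0.29), and the ranges of all neighbours in that order overlapped.

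Hspa1b, which encodes the same inducible HSP70 from a neighbouring gene, measured 8.05, 7.36, 7.71 and 7.66 log2 in the GFP+ cells of clean-air pools 1 to 4 and 8.23, 7.93, 7.56 and 7.31 log2 in those of octanoic acid pools 1 to 4. Its GFP- values were 8.40, 8.16, 8.56 and 7.59 log2 with clean air and 9.21, 9.06, 8.55 and 8.23 log2 with octanoic acid. GFP- cells of octanoic acid pools 1 and 2 stood highest, above 9 log2. With clean air the fractions overlapped, GFP+ reaching up to 8.05 and GFP- down to 7.59 log2. With octanoic acid they only touched, at 8.23 log2. The group means were 8.76 ± 0.45 in GFP- cells with octanoic acid, 8.18 ± 0.42 in GFP- cells with clean air, 7.76 ± 0.41 in GFP+ cells with octanoic acid and 7.70 ± 0.28 in GFP+ cells with clean air, again with overlapping neighbours. Neither HSP70 gene passed the 95th percentile of the negative controls on any array, so both were measured near the limit of the array.

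Dnajb1, the J-domain partner that hands unfolded chains to HSP70 and is itself heat-inducible, was brighter and passed that percentile on 10 of 16 arrays. Its GFP+ signals were 10.76, 10.43, 10.09 and 10.24 log2 in clean-air pools 1 to 4 and 10.40, 10.23, 9.59 and 10.14 log2 in octanoic acid pools 1 to 4. Its GFP- signals were 11.03, 10.80, 10.66 and 10.84 log2 with clean air and 10.88, 11.13, 10.80 and 11.05 log2 with octanoic acid. The octanoic acid fractions did not overlap, and with clean air 1 GFP+ array, that of pool 1, reached into the GFP- range. The lowest value of all, 9.59, came from the octanoic acid GFP+ array of pool 3, which also had the highest negative-control median among GFP+ arrays.

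Hsph1, the HSP110 protein that exchanges the nucleotide of HSP70, did not separate the fractions. It measured 11.42, 11.40, 11.18 and 11.39 log2 in GFP+ cells and 11.61, 11.34, 11.29 and 10.70 log2 in GFP- cells of clean-air pools 1 to 4. With octanoic acid the GFP+ values were 11.45, 11.50, 10.80 and 11.11 log2 and the GFP- values 11.47, 11.43, 10.85 and 11.29 log2. All 4 group means lay between 11.21 and 11.35 log2, and their ranges overlapped. The lowest values came from clean-air GFP- pool 4 and from both fractions of octanoic acid pool 3.

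Hsp90aa1, the inducible cytosolic HSP90, was among the brightest genes of the array, with a mean signal at the 99.2 percentile of all genes. GFP+ cells gave 16.03, 16.34, 15.66 and 15.88 log2 with clean air and 16.11, 16.14, 15.57 and 15.75 log2 with octanoic acid. GFP- cells gave 16.09, 16.005, 15.74 and 15.94 log2 with clean air and 15.83, 15.81, 15.76 and 15.84 log2 with octanoic acid. The 4 groups overlapped, with means from 15.81 to 15.98 log2, and GFP- cells with octanoic acid were the most even (SD 0.035, n = 4). Hspb1, a small heat shock protein that holds unfolded chains in solution, ranged from 4.20 to 5.36 log2 over the 16 arrays, which is not above background on any of them, so no fold is given for it.

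**Figure D1:**
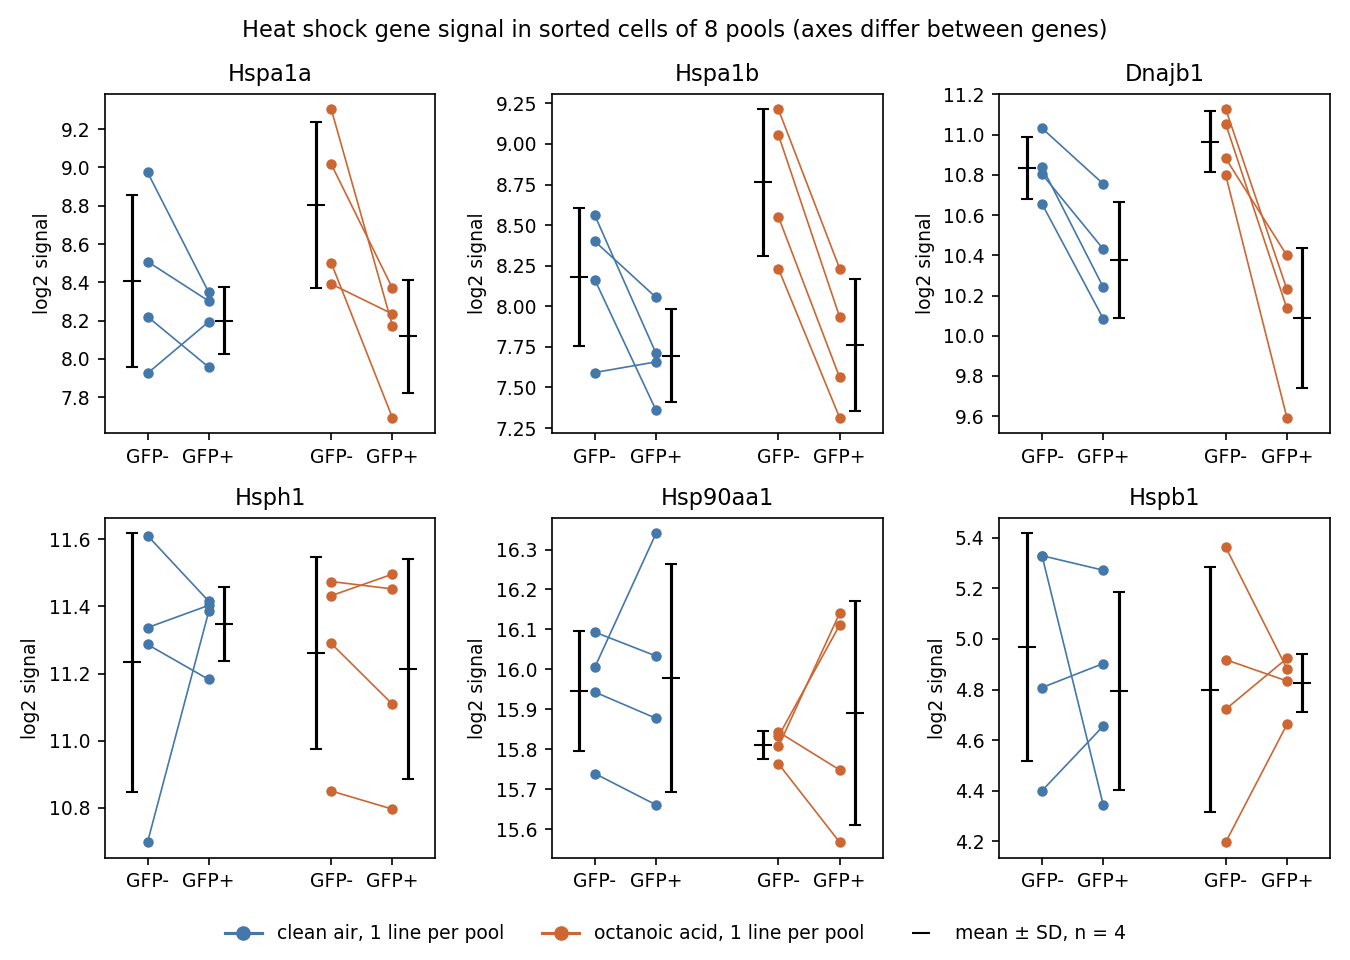
Signal of each heat shock gene with a named probe set (log2, vertical axis) on each of the 16 arrays, by treatment and sorted fraction, with a line joining the 2 samples of each pool and black bars for the mean and SD of 4 arrays. Dnajb1 and Hspa1b fell from GFP- to GFP+ in nearly every pool, Hsph1 and Hsp90aa1 did not separate the fractions, and Hspb1 ranged from 4.20 to 5.36, below the background of 6.20.

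Comparing GFP+ with GFP- cells of the same pool asks which transcripts the sort enriched or depleted. With clean air the difference within a pool (GFP+ minus GFP-, on the log2 scale) was -0.28, -0.37, -0.57 and -0.60 for Dnajb1 in pools 1 to 4. Dnajb1 was thus lower in 4 of 4 pools, as 15.5% of all genes were. Hspa1b gave -0.35, -0.80, -0.85 and 0.07, and Hspa1a gave -0.63, -0.26, -0.21 and 0.27. Pool 4 was the only clean-air pool in which either HSP70 gene was higher in GFP+ cells, and it is the pool whose GFP- array had the highest control median of the series.

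None of the 6 genes passed the threshold with clean air in limma's moderated test, adjusted by Benjamini-Hochberg over all 19505 genes, while 15.4% of all genes did, 5.83% as higher and 9.58% as lower in GFP+ cells. At an unadjusted p under 0.05 there were 2, Dnajb1 and Hspa1b. The mean difference was -0.45 ± 0.16 (SD, n = 4 pools) for Dnajb1 (adjusted p = 0.0751), -0.48 ± 0.43 for Hspa1b (adjusted p = 0.0864) and -0.21 ± 0.37 for Hspa1a (adjusted p = 0.536). The Hspa1a value was -0.067 without clean-air pool 1 and -0.37 without pool 4. Hspa1b passed without clean-air pool 4 (-0.67, adjusted p = 0.0313), and Dnajb1 passed after quantile normalization (-0.47, adjusted p = 0.0447) and when genes under the background were left out (-0.45, adjusted p = 0.0455). Other settings shrank these differences: centring each array on its median gave -0.18 for Dnajb1 (adjusted p = 0.338) and -0.21 for Hspa1b (adjusted p = 0.301), and quantile normalization gave -0.28 for Hspa1b (adjusted p = 0.27).

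With octanoic acid the inducible HSP70 genes and Dnajb1 were lower in GFP+ cells in every pool. Dnajb1 gave -0.48, -0.90, -1.21 and -0.92 in pools 1 to 4, Hspa1b gave -0.98, -1.12, -0.99 and -0.92, and Hspa1a gave -1.13, -0.65, -0.81 and -0.16. All 3 fell past the threshold, 3 of 6 members with a probe set, where 10.9% of all genes were called lower, 6.26% higher and 17.2% in either direction. Hspa1a and Hspa1b may share signal, so these calls cannot be counted as 3 separate ones. Lower in every octanoic acid pool held for 15.4% of all genes, and every GFP+ array under every GFP- array, as for Hspa1a and Dnajb1, held for 10.7%.

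The size of the fall was 1.84-fold for Dnajb1 (-0.88 ± 0.30, SD, n = 4, adjusted p = 0.0018), 2.00-fold for Hspa1b (-1.003 ± 0.086, adjusted p = 0.00141) and 1.61-fold for Hspa1a (-0.69 ± 0.41, adjusted p = 0.0294). These sizes depend on the scaling. Centring gave -0.57 for Dnajb1 and -0.70 for Hspa1b, and quantile normalization gave -0.76 for each, all still past the threshold. Hspa1b had the smallest SD of the 3 although its level differed between pools: its GFP+ and GFP- values were 8.23 and 9.21 in the highest pool and 7.31 and 8.23 in the lowest, almost the same distance apart. The call for Hspa1a was lost after centring each array on its median (-0.38, adjusted p = 0.115), after quantile normalization (-0.45, adjusted p = 0.131), and without octanoic acid pool 1 (-0.54, adjusted p = 0.132), pool 2 (-0.70, adjusted p = 0.0601) or pool 3 (-0.65, adjusted p = 0.0911), and with octanoic acid pool 3 and clean-air pool 4 left out together (-0.65, adjusted p = 0.0838). In bulk samples such as these, fewer cells of a type that holds a transcript and less of the transcript per cell cannot be told apart.

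Over both treatments the same 3 genes fell and the other 3 did not pass, where 13.6% of all genes were called lower and 26.7% were called in either direction. The limit on counting Hspa1a and Hspa1b separately holds here too. Dnajb1 fell by 0.67 on the log2 scale (95% interval -0.91 to -0.42, 1.59-fold, adjusted p = 0.000727) and was lower in 8 of 8 pools, which 11.2% of all genes were. No member had every GFP+ array of both treatments under every GFP- array, which 7.45% of all genes had. Hspa1b fell by 0.74 (95% interval -1.01 to -0.48, 1.67-fold, adjusted p = 0.000674) and was lower in 7 of 8 pools. Hspa1a fell by 0.45 (95% interval -0.74 to -0.15, 1.36-fold, adjusted p = 0.0307) in 7 of 8 pools, a call lost on centring (-0.16, adjusted p = 0.299), on quantile normalization (-0.25, adjusted p = 0.188), and without clean-air pool 1 (-0.38, adjusted p = 0.088), 2 (-0.44, adjusted p = 0.0701) or 3 (-0.45, adjusted p = 0.0627) or octanoic acid pool 1 (-0.37, adjusted p = 0.0839) or 3 (-0.43, adjusted p = 0.06).

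Hsph1 differed by 0.03 (95% interval -0.23 to 0.29) and Hsp90aa1 by 0.06 (95% interval -0.18 to 0.30) between the fractions over both treatments. Both intervals end short of the mean falls of Hspa1a, Hspa1b and Dnajb1. The interval of Hspa1a itself (-0.74 to -0.15) overlaps both, and the difference between genes was not tested. Their call depends on the scaling. The median over all genes of the within-pool difference was 0.12 as deposited and 0.41 after centring. Array medians of the named genes ran from 7.00 to 7.02 log2 in GFP+ and from 7.24 to 7.39 log2 in GFP- cells, and centring removes that gap. On the centred values Hsph1 (0.32, adjusted p = 0.0267) and Hsp90aa1 (0.34, adjusted p = 0.0161) passed as higher. Centring turned the calls over all genes from 2555 higher and 2651 lower to 12174 higher and 2023 lower, and quantile normalization gave 4621 and 2560. Dnajb1 and Hspa1b stayed lower and past the threshold under both (Dnajb1 -0.38 and -0.61, Hspa1b -0.46 and -0.52). The median over the 6 members was -0.26 as deposited, beside 0.12 for all genes, and it counts Hspb1, which lay below the background. Over the 5 others the middle value was that of Hspa1a, -0.45.

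**Figure D2:**
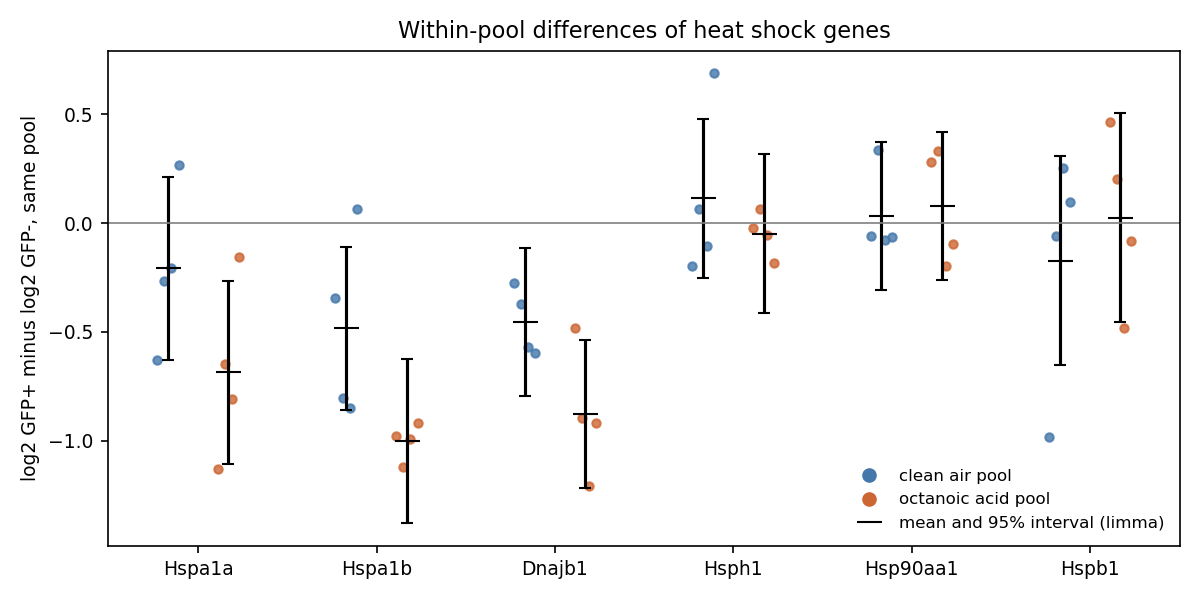
Difference between the sorted samples of a pool (GFP+ minus GFP-, log2 units, vertical axis) for each heat shock gene in the 4 clean-air and the 4 octanoic acid pools, with the mean and its 95% interval from limma in black. Hspa1b lay between -1.12 and -0.92 in all 4 octanoic acid pools and between -0.85 and 0.07 with clean air, and Hsph1 and Hsp90aa1 lay around 0.

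The odor effect on enrichment asks whether exposure to octanoic acid changed the difference between the fractions. None of the 6 genes passed in limma (0 at an unadjusted p under 0.05), nor did any of the 19505 genes (0% called, 871 at an unadjusted p under 0.05). The 3 genes that fell were lower with octanoic acid by -0.52 for Hspa1b (95% interval -1.05 to 0.01), -0.48 for Hspa1a (-1.07 to 0.11) and -0.42 for Dnajb1 (-0.90 to 0.06), each with an adjusted p of 0.94. Without octanoic acid pool 3 and clean-air pool 4 these were -0.34, -0.28 and -0.36, and for Hspa1b -0.34 without clean-air pool 4 alone. For Hspa1b the 4 octanoic acid differences all lay under the 4 clean-air differences, which 1.49% of all genes did in that direction and 2.54% in either. An exact two-sided permutation test of that single gene gave p = 0.0286, the smallest that 4 against 4 pools can give, and it was 1 of several such tests over the 6 genes and 3 comparisons between treatments.

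Between treatments within a fraction no heat shock gene passed in limma, in GFP+ cells (0% of all genes called, 716 at an unadjusted p under 0.05, 0 of the 6) or in GFP- cells (0% called, 741 at an unadjusted p under 0.05, 1 of the 6). The GFP- gene was Hspa1b, at 0.58 higher with octanoic acid (95% interval 0.00 to 1.16, adjusted p = 0.985, exact permutation p = 0.143). Hspa1a was 0.40 higher in GFP- cells (95% interval -0.18 to 0.98). In GFP+ cells the differences were 0.06 for Hspa1b, -0.08 for Hspa1a and -0.29 for Dnajb1, with intervals that span 0. Single pools moved these values by over 1.5 times: Dnajb1 in GFP+ cells was -0.12 without octanoic acid pool 3, -0.16 without clean-air pool 1 and -0.17 without octanoic acid pool 3 and clean-air pool 4 together. In GFP- cells Hspa1a was 0.23 without octanoic acid pool 1 and 0.24 without clean-air pool 4, and Hspa1b was 0.39 without clean-air pool 4. In GFP+ cells Hspa1a and Hspa1b changed sign with the pool left out. These comparisons share arrays with the odor effect on enrichment and are its parts, not further evidence for it.

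The members also differed in how they varied between arrays of 1 group. With group means subtracted, Hspa1a went with Hspa1b (r = 0.75) and with Hsph1 (r = 0.75) over the 16 arrays, and Dnajb1 went with Hsp90aa1 (r = 0.74). Values of that size were not rare. Among 11324 genes above the background, Hsph1 ranked 284 and Hspa1b 310 in likeness to Hspa1a, and Hsp90aa1 ranked 187 in likeness to Dnajb1. Hsph1 gave r = 0.66 with Hspa1b, 0.59 with Dnajb1 and 0.56 with Hsp90aa1. Dnajb1 gave r = 0.36 with Hspa1a and 0.28 with Hspa1b. Hspa1a with Hsp90aa1 gave r = 0.16, and Hspa1b with Hsp90aa1 gave r = 0.13. The 16 arrays share pools in pairs and differ in control signal, so these values describe the arrays and carry no test. The octanoic acid GFP+ array of pool 3 was the lowest of its group for Hspa1a, Dnajb1, Hsph1 and Hsp90aa1, and the clean-air GFP- array of pool 4 was the lowest of its group for Hspa1a, Hspa1b and Hsph1; these are the arrays with the highest control medians of their fractions, whose part in the correlations was not tested.

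**Figure D3:**
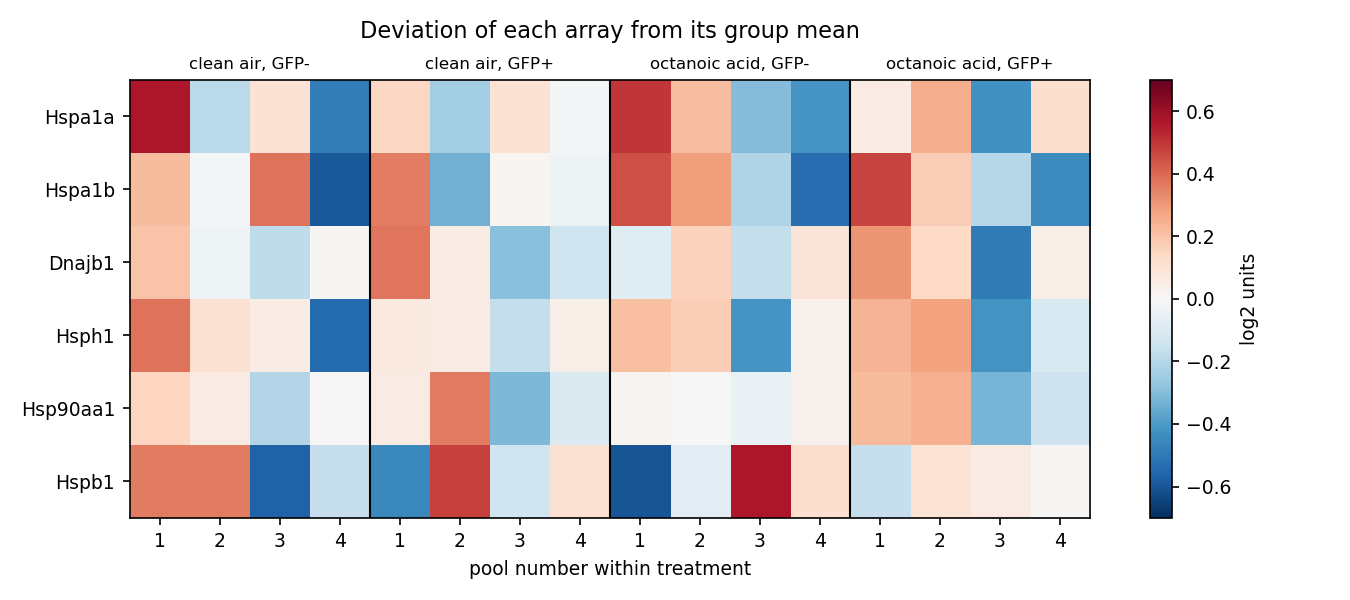
Deviation of each heat shock gene from its group mean on the 16 arrays (columns, numbered by pool), as colour in log2 units, red above and blue below the mean. The arrays with the highest negative-control medians, octanoic acid GFP+ pool 3 and clean-air GFP- pool 4, lie low for several members at once.

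The genes whose deviations were most like each member's, among 11324 genes above the background, are a description of shared variation between arrays. For Hspa1a they were Mettl4 (r = 0.92), Unc5b (0.91) and Paqr9 (0.90), and for Hspa1b Dmac2l (0.91), Epn2 (0.88) and Irs1 (0.88). For Dnajb1 they were Rsrp1 (0.89), Rgp1 (0.87) and Pde7a (0.86). Hsph1 was most like Lrp11 (0.95), Rhbdl3 (0.94) and Ppdpf (0.92), and Hsp90aa1 most like Scrn3 (0.92), Ccnc (0.92) and Akirin1 (0.91). Over the 8 within-pool differences, none of the 15 pairs of members was correlated after adjustment (smallest adjusted exact permutation p = 0.686 for Pearson's r and 0.721 for Spearman's rho). The nearest by descent, Hspa1a and Hspa1b, gave r = 0.61 (exact permutation p = 0.12) and rho = 0.67 (exact permutation p = 0.0831). With treatment means subtracted r was 0.35. It was 0.0079 without the 2 pools whose Hspa1a difference lay farthest from its median. Leaving out the extremes of 1 gene narrows its range and tends to lower any r, so that value cannot show which pools the relation rests on.

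Of 65 other chaperones and regulators listed by name, 58 had a named probe set, and over both treatments 3 were called higher and 3 lower, 5.17% each beside 13.1% and 13.6% of all genes. Their median difference was 0.04, beside 0.12 for all genes. On centred arrays 33 of the 58 were called higher and 1 lower, and after quantile normalization 9 and 3, so the count of higher genes follows the scaling. With clean air 1 was higher and 0 lower (5.83% and 9.58% of all genes). With octanoic acid 0 were higher and 1 lower (6.26% and 10.9% of all genes). In the odor effect on enrichment 0 passed (2 at an unadjusted p under 0.05).

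By role, the gene that fell furthest was Hspa2, an HSP70 best known from male germ cells, at -0.70 ± 0.61 (SD, n = 8 pools, adjusted p = 0.00954). It was the 1 gene of the 58 lower with octanoic acid (-1.01, adjusted p = 0.0117), and it stayed past the threshold on centred arrays (-0.41, adjusted p = 0.0425). Hspa4, another HSP110 relative, differed by 0.05 and mitochondrial Hspa9 by 0.14, neither past the threshold. Among J-domain partners Dnaja4 rose by 0.36 ± 0.17 (adjusted p = 0.0215), the opposite direction to Dnajb1, and the other 5 measured did not pass. Hsf4, a heat shock factor of the lens, was called higher (0.41, adjusted p = 0.0293) with a mean signal of 6.31 log2, close to the background, and Hsf2 gave 0.26 (adjusted p = 0.136).

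Of 13 measured co-chaperones of HSP70 and HSP90 none passed in limma (0 at an unadjusted p under 0.05). The smallest p belonged to Ahsa2 (0.23, adjusted p = 0.152) and Unc45a (0.20, adjusted p = 0.152), and Bag3, a co-chaperone that heat shock factor 1 induces, gave 0.23 (adjusted p = 0.213). Trap1, the mitochondrial HSP90, gave -0.18 (adjusted p = 0.228). Of the chaperonins, the ring-shaped folding machines, Cct5 fell by 0.36 ± 0.23 (adjusted p = 0.0328), a call lost on centred arrays (-0.07, adjusted p = 0.569) and without the pools of the arrays with high control medians (-0.31, adjusted p = 0.108). Of the chaperones of the endoplasmic reticulum, Hyou1 rose by 0.34 ± 0.21 (adjusted p = 0.0192), and Hspa5, the HSP70 of that compartment, gave -0.18 (adjusted p = 0.235). Without those pools Hyou1 (0.30, adjusted p = 0.0723) and Hsf4 (0.36, adjusted p = 0.11) also missed the threshold. Hspb8, the 1 small heat shock protein called lower (-0.57, adjusted p = 0.0452), lay below the background on average (4.66 log2), so no fold is given.

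**Figure D4:**
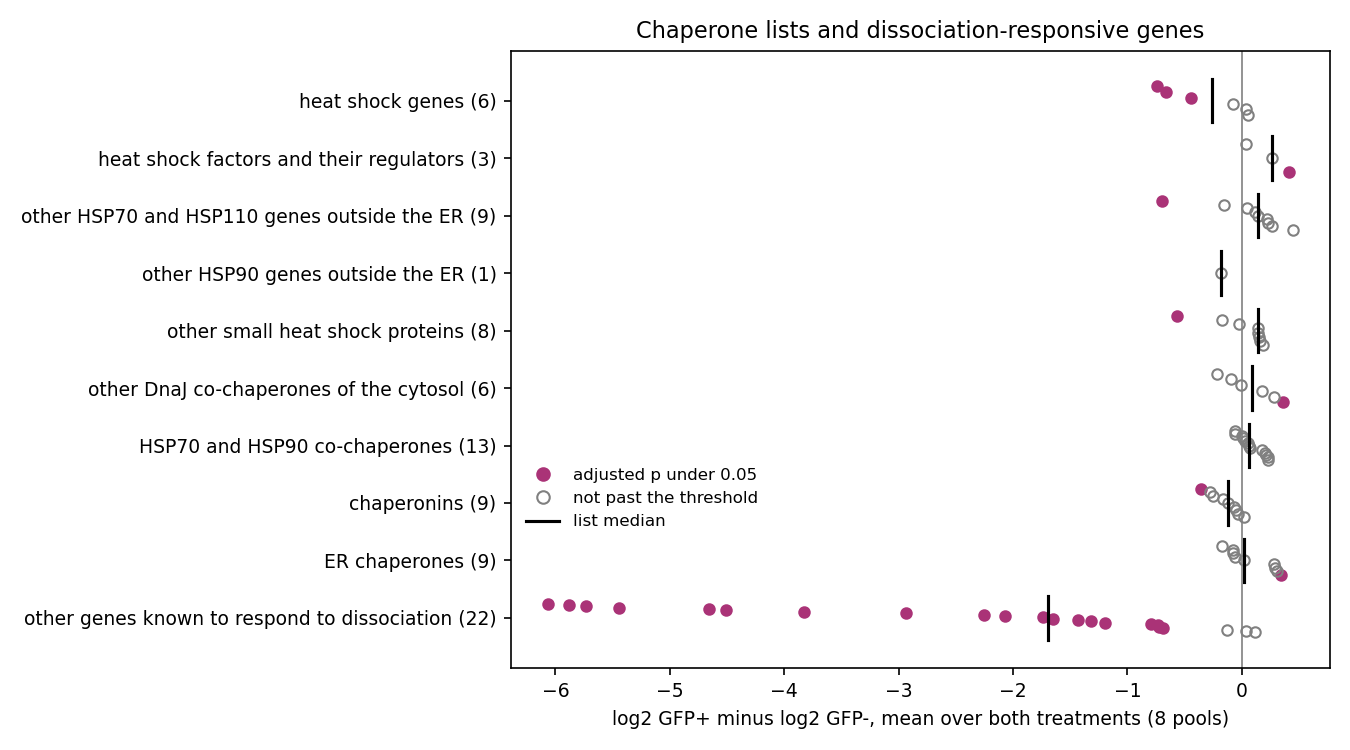
Difference between GFP+ and GFP- cells over both treatments (log2, 1 point per gene, filled where past the threshold, with list medians) for the heat shock genes, the other chaperone lists and the other genes known to respond to dissociation. Chaperones scatter around 0, and 19 of the 22 dissociation-responsive genes lie below it past the threshold, with Fos at -6.06.

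Of 23 other genes listed as known to respond to dissociation, mostly immediate early genes and their feedback inhibitors, 22 were measured. Over both treatments 19 were lower and 0 higher in GFP+ cells, where 13.6% of all genes were lower and 13.1% higher, and their median was -1.70. On centred arrays 19 were lower and 2 higher, with a median of -1.41. The largest falls were in Fos (-6.06 ± 0.60, SD, n = 8), Zfp36 (-5.88 ± 0.94) and Egr1 (-5.73 ± 0.89). With clean air 18 of the 22 were lower (9.58% of all genes), and with octanoic acid 19 (10.9% of all genes). Many genes of this list are also known to respond to neuronal activity and to be expressed by leukocytes, and these sources cannot be told apart here.

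Markers of several other cell types moved with the sort, and those of others did not pass. All 11 measured leukocyte markers and all 11 measured neutrophil markers were lower in GFP+ cells over both treatments, beside the fall of Hspa1a, Hspa1b and Dnajb1, where 13.6% of all genes were lower. The summed signal of the leukocyte markers was 9.99 to 11.6 log2 in GFP+ and 16.1 to 17.5 log2 in GFP- cells with clean air, and 10.1 to 12.1 and 16.5 to 18.3 log2 with octanoic acid. For the neutrophil markers it was 9.69 to 11.1 and 18.6 to 19.9 log2 with clean air, and 9.32 to 12.4 and 19.1 to 20.5 log2 with octanoic acid. In GFP+ cells Cd52, Tyrobp, Fcer1g, Coro1a, Itgb2 and Cd53, and in the neutrophil list Camp, Mmp8, Mmp9, Elane and Csf3r, were at background in both treatments. All 4 measured progenitor and dividing cell markers (Neurog1, Kit, Mki67 and Top2a) were also lower in GFP+ cells. The same held for all 6 microvillous and tuft cell markers and 5 of 8 immature neuron markers. Of 12 mature neuron markers, 3 were higher and 0 lower. Of the remaining lists, 2 of 8 sustentacular, 2 of 5 Bowman gland, 1 of 4 endothelial and the 1 measured erythroid marker were lower. None of 4 horizontal basal cell (0 at an unadjusted p under 0.05), 4 fibroblast (1) and 3 ensheathing glia markers (1) passed in limma. All 4 horizontal basal cell and all 3 ensheathing glia markers were at background in all 4 groups. So were the fibroblast markers Col1a2 and Lum and the endothelial markers Cdh5, Kdr and Cldn5. Neurog1 and the microvillous and tuft cell marker Chat, counted above as lower, were also at background in all 4 groups. The same held for the sustentacular marker Hes1 and the Bowman gland marker Obp1a. Markers at background cannot show whether their cell types moved with the sort. The part of these cell types in the lower Hspa1a, Hspa1b and Dnajb1 signal of GFP+ cells was not tested.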

How the data were processed

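Octanoic acid and clean-air pools of S100a5-tauGFP olfactory mucosa were sorted into GFP+ and GFP- cells, 4 arrays per group, with 50 to 100 ng of RNA per array. The deposited table gives a log2 signal for each probe set on each array, which the authors computed in Affymetrix Expression Console per the submitters' processing notes. Its version, its summary and normalization method and the array's genome build are not given in the sources used here, and the scale was inferred from the range of values, 2.13 to 19.5. Differences of genes near the background can be understated on this scale.

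Of 28846 probe sets, 5222 were negative controls and 19572 carried 1 gene symbol. The brightest probe set was kept where a gene had several (67 left out), which gave 19505 genes. Each pool's GFP- value was subtracted from its GFP+ value on the log2 scale, and these 8 differences went into a single limma fit (version 3.58.1 under R 4.3.3, two-sided moderated tests from lmFit and eBayes). Odor and vehicle arrays of 1 fraction were set against each other too, 4 against 4. All limma p-values were adjusted (Benjamini-Hochberg, 0.05) for all 19505 genes, or for 11633 where dim genes were left out. Those of the member pairs were adjusted over the 15 pairs, and exact permutation p-values of single genes were not adjusted. Single genes were compared between treatments by exact permutation in SciPy 1.17.1. The limma test of the difference over both treatments was also run on simulated data.

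The members and gene lists were chosen with earlier results of these data known. Named were all members, S100a5, up to 3 genes past the threshold in each direction per chaperone list over both treatments (or the 2 smallest p), and the 3 genes most alike each member over arrays. Hspa4, Hspa9, Hspa5, Hsf2 and Bag3 were added after their values were seen. Promoter sequences are RefSeq's on GRCm38.p6. Alternatives tried were other scalings, a floor, dim genes left out, a robust and trended variance prior, mean probe sets, a replicate block, a random pool block and each pool left out. Leaving out octanoic acid pool 3 and clean-air pool 4 together was chosen after seeing the data.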

Additional observations from a re-analysis of the deposited data

Results flagged for a closer look

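Among 36 sets of 4 values (levels in 4 groups and within-pool differences in both treatments for 6 genes), 2 held a value far from the other 3, and chance alone would single out about 1 in 20. Hsph1 measured 11.18 log2 in the GFP+ cells of clean-air pool 3, and the nearest of the other clean-air GFP+ arrays measured 11.39, so the gap was 0.87 of the group's range. Hsp90aa1 was 0.34 log2 higher in GFP+ than in GFP- cells of clean-air pool 2, and the nearest of the other clean-air pools gave -0.06, a gap of 0.955 of the range. Neither gene passed the threshold in any comparison as deposited.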

How the results depend on the processing

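Of 594 values of single members under the alternatives, 530 kept their direction and their side of the threshold, and no member past the threshold changed sign. The count of heat shock genes called was 0 with clean air and 1 after quantile normalization (Dnajb1), with dim genes left out (Dnajb1) and with octanoic acid pool 3 and clean-air pool 4 left out together (Hspa1b), and ran from 0 to 1 with single pools left out. With octanoic acid it was 3, and 2 on centring, on quantile normalization and with both pools left out, and 4 with the floor. Over both treatments it was 3, and 2 on quantile normalization, 4 with the floor and 4 on centring (2 lower and 2 higher). Each ran from 2 to 3 with single pools left out, and the count was 0 in the 3 comparisons between treatments under every alternative run. Dnajb1 and Hspa1b kept their calls with octanoic acid and over both treatments under every alternative run, and the calls of Hspa1a lost are given with the comparisons. A floor at the background raised Hspb1 past the threshold with octanoic acid (0.46, adjusted p = 0.0326 in limma) and over both treatments (0.29), which rests on replacing its values, all below the background, by the background.

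Odor and vehicle pools share replicate numbers. Deviations of same-numbered pools from their group means correlated at 0.179, 0.110, 0.237 and 0.100 for the within-pool differences, at 0.371, 0.100, 0.219 and 0.138 for GFP+ arrays and at 0.408, 0.100, -0.0986 and 0.153 for GFP- arrays, so the numbers were not taken to pair the pools. With the replicate block on that number the counts were 0 with clean air, 3 with octanoic acid, 3 over both treatments and 0 in the other comparisons, as without it.

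The differences that changed sign were small and uncalled before the change, and their cause was not tested. In GFP+ minus GFP- with clean air, centring gave 0.064 for Hspa1a and 0.098 for Hspb1, quantile normalization gave -0.015 for Hsp90aa1, the floor gave 0.12 for Hspb1, and leaving out both pools gave -0.078 for Hsph1. With octanoic acid, centring gave 0.26 for Hsph1, and quantile normalization gave -0.069 for Hspb1 and 0.032 for Hsph1. Over both treatments, centring gave 0.21 for Hspb1 and leaving out both pools gave -0.062 for Hsph1. Leaving out both pools also gave 0.032 for Hsph1 in the odor effect on enrichment, 0.057 for Hspa1a and 0.019 for Hsph1 in GFP+ cells between treatments, and -0.013 for Hsph1 in GFP- cells. Quantile normalization gave -0.088 for Hspb1 in GFP+ cells and -0.0060 for Hsph1 in GFP- cells, where centring gave -0.0099.

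With single pools left out, the clean-air difference ran from -0.32 to 0.098 for Hspb1, from -0.068 to 0.070 for Hsp90aa1 and from -0.078 to 0.22 for Hsph1. The octanoic acid difference ran from -0.12 to 0.19 for Hspb1 and from -0.0042 to 0.17 for Hsp90aa1, and that over both treatments from -0.15 to 0.062 for Hspb1 and from -0.063 to 0.084 for Hsph1. The odor effect on enrichment ran from -0.072 to 0.37 for Hspb1, from -0.27 to 0.030 for Hsph1 and from -0.037 to 0.15 for Hsp90aa1. Between treatments in GFP+ cells the range was -0.12 to 0.19 for Hspb1, -0.19 to 0.035 for Hsp90aa1, -0.093 to 0.21 for Hspa1b, -0.17 to 0.059 for Hspa1a and -0.23 to 0.0058 for Hsph1. In GFP- cells it was -0.15 to 0.17 for Hsph1 and -0.36 to 0.035 for Hspb1. Signals of Hspa1a, Hspa1b and Hspb1 under the 95th percentile of the negative controls on all 16 arrays limit what these arrays show of those genes.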
